A study of Homo sapiens with 4 samples.

Results

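Translation initiation factors (eIFs) and elongation factors (eEFs) are the proteins that load the ribosome onto an mRNA, place the initiator tRNA at the start codon and then move the ribosome along the coding sequence. The mRNAs of several of them belong to the terminal oligopyrimidine (TOP) class, in which the transcript begins with a cytosine and a run of pyrimidines and whose translation responds to mTORC1 and to the RNA-binding protein LARP1. PRMT5 is a protein arginine methyltransferase, and the experiment asked which RNAs are recovered with it. The genes described here are the protein-coding genes whose symbols begin with EIF1 to EIF6, EEF1 or EEF2, with pseudogenes left out. They carried 165 of the 18993 peaks in the deposited PRMT5 peak list, in 55 of its 8478 genes.

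All libraries came from Jurkat, an established human leukemic T cell line, stimulated with PHA for 48 h and crosslinked with UV light. RNA recovered by a FLAG immunoprecipitation of PRMT5 gave 2 PRMT5 RIP libraries, and 2 input libraries served as the reference. All 8 T cell genes looked up (CD3D, CD3E, CD3G, CD247, LCK, ZAP70, LAT and CD28) had a peak, with 11.7 to 417 RPM of summed input, while of 4 B cell and 4 myeloid genes only CD79A and CSF1R had one, with 37.3 and 29.5 RPM. The FLAG-tagged construct used for these libraries is not described in the sources used here, and no immunoprecipitation from cells without it is among these samples. The authors deposited 1 peak list in which each peak has a pooled RPM value (reads scaled to library size) from the RIP and another from input. No spread between replicates can therefore be given for any value in this text, no p-value was computed, and the depth of each library is unknown. A gene value is the log2 ratio of its RPM summed over all its peaks, PRMT5 RIP over input, with 0.01 RPM added to each sum.

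RefSeq annotates 69 protein-coding genes with these symbols, and 55 of them had at least 1 peak. The 14 genes without a peak were EEF1A2, EEF1AKMT1, EEF1AKMT3, EEF1E1, EEF2K, EIF2AK2, EIF2AK4, EIF2S3B, EIF4E1B, EIF4E3, EIF4ENIF1, EIF4G3, EIF5A2 and EIF5B. The list holds only called peaks and no value for other regions, so these 14 genes have no PRMT5 RIP or input value here. Of its 8478 identifiers, 7493 were given a symbol, so a peak of these 14 genes under an unnamed identifier would be missed. EIF1AY, which lies on the Y chromosome, is counted among the 55 genes, and its own values are not given. For 10 of the 55 genes the tables used give no strand, so the strand of EEF1D, EEF2KMT, EIF2S2, EIF3A, EIF3CL, EIF3E, EIF3G, EIF3H, EIF3L and EIF4EBP1 was not compared with that of their peaks.

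The first transcribed bases are shown for 14 of the 44 factor genes with a start-site sequence, because TOP mRNAs are defined by these bases. Each sequence runs from 15 bases before the annotated start to the 15th transcribed base, on the strand of the gene, and comes from RefSeq on GRCh38.p14. Capitals mark a C at the first transcribed base followed by at least 4 bases of C or T without a break, which was searched at that position and on that strand only.
EEF1A1, chr6:73521018-73521047, minus strand: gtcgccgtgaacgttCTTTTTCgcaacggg
EEF2, chr19:3985449-3985478, minus strand: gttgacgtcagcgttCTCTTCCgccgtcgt
EIF4B, chr12:53006441-53006470, plus strand: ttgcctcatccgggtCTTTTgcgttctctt
EIF4A2, chr3:186783562-186783591, plus strand: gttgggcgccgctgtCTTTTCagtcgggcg
EIF3F, chr11:7987322-7987351, plus strand: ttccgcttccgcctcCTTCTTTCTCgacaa
EIF3K, chr19:38619173-38619202, plus strand: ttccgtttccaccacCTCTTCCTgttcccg
EIF3M, chr11:32583816-32583845, plus strand: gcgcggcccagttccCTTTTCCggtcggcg
EIF2S3, chrX:24054941-24054970, plus strand: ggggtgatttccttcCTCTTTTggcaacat
EEF1B2, chr2:206159594-206159623, plus strand: gccggaagtggccccagcctcgaggccggg
EEF1G, chr11:62573877-62573906, minus strand: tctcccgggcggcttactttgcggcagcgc
EIF5A, chr17:7306984-7307013, plus strand: atgggtgggaacccgaccacactagcgcgc
EIF5, chr14:103334222-103334251, plus strand: gcggcggcgttgttcagtcagagcgagaac
EIF2B2, chr14:75002906-75002935, plus strand: gacctcgcccgccccggaagtgcaaactgt
EIF4EBP2, chr10:70404130-70404159, plus strand: ctcccgccttcgcccgcttccggtcgtcgt
The first 8 genes have the run at their annotated start. EEF1B2 and EEF1G are TOP mRNAs by textbook definition, and the run was not found at the single start position that RefSeq gives for them. EIF5A, EIF5, EIF2B2 and EIF4EBP2 are shown because their ratios, given below, were above the median of all genes. They were chosen by value, so the 14 sequences do not show how the run and the ratio go together. Of the 33 factor genes without the run, 19 lay below that median, such as EIF4A1 with 0.04. EIF2A, not shown, has the run and had 1.05.

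Translation factor RNAs were present in the PRMT5 RIP, but most had a lower PRMT5 RIP to input ratio than the typical gene of the list. The median log2 RPM ratio over the 55 genes was 0.80, and over all 8478 genes it was 1.20. Of the 55 genes, 38 (69.1%) lay below the median of all genes, against 50% of all genes by definition. A ratio of at least 1, which is 2-fold, was reached by 22 genes (40.0%), against 62.3% of all genes. The RPM of PRMT5 RIP was below that of input in EEF1A1, EIF3L and EIF3E, which is 5.45% of the factor genes, against 2.22% of all genes.

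Counted over single peaks, 57 of 165 (34.5%) reached a log2 RPM ratio of 1, against 55.8% of all peaks. The median was 0.72 over the factor peaks and 1.10 over all peaks, and the factor peaks ranged from -0.62 to 3.28. In 21 peaks (12.7%) input had the higher RPM, against 3.84% of all peaks. The direction against 0 depends on the scaling, since all 21 of these peaks have a positive log2 fold change (log2FC) in the authors' deposited table. That log2FC comes from the peak caller and was higher than the log2 RPM ratio by a median of 0.77 over the factor peaks and 0.79 over all peaks. By the deposited log2FC, 48 factor peaks (29.3%) reached 2, against 47.4% of all peaks, and 46 (28.0%) were below 1, against 8.82% of all peaks. The deposited FDR was at or below 0.01 for 160 of the 165 peaks, and for 96.9% of all peaks. The other 5 peaks were the widest or only peaks of EEF1B2, EEF1G, EEF2 and EIF1AX and 1 peak of EIF4B, and each listed several gene identifiers.

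**Figure D1:**
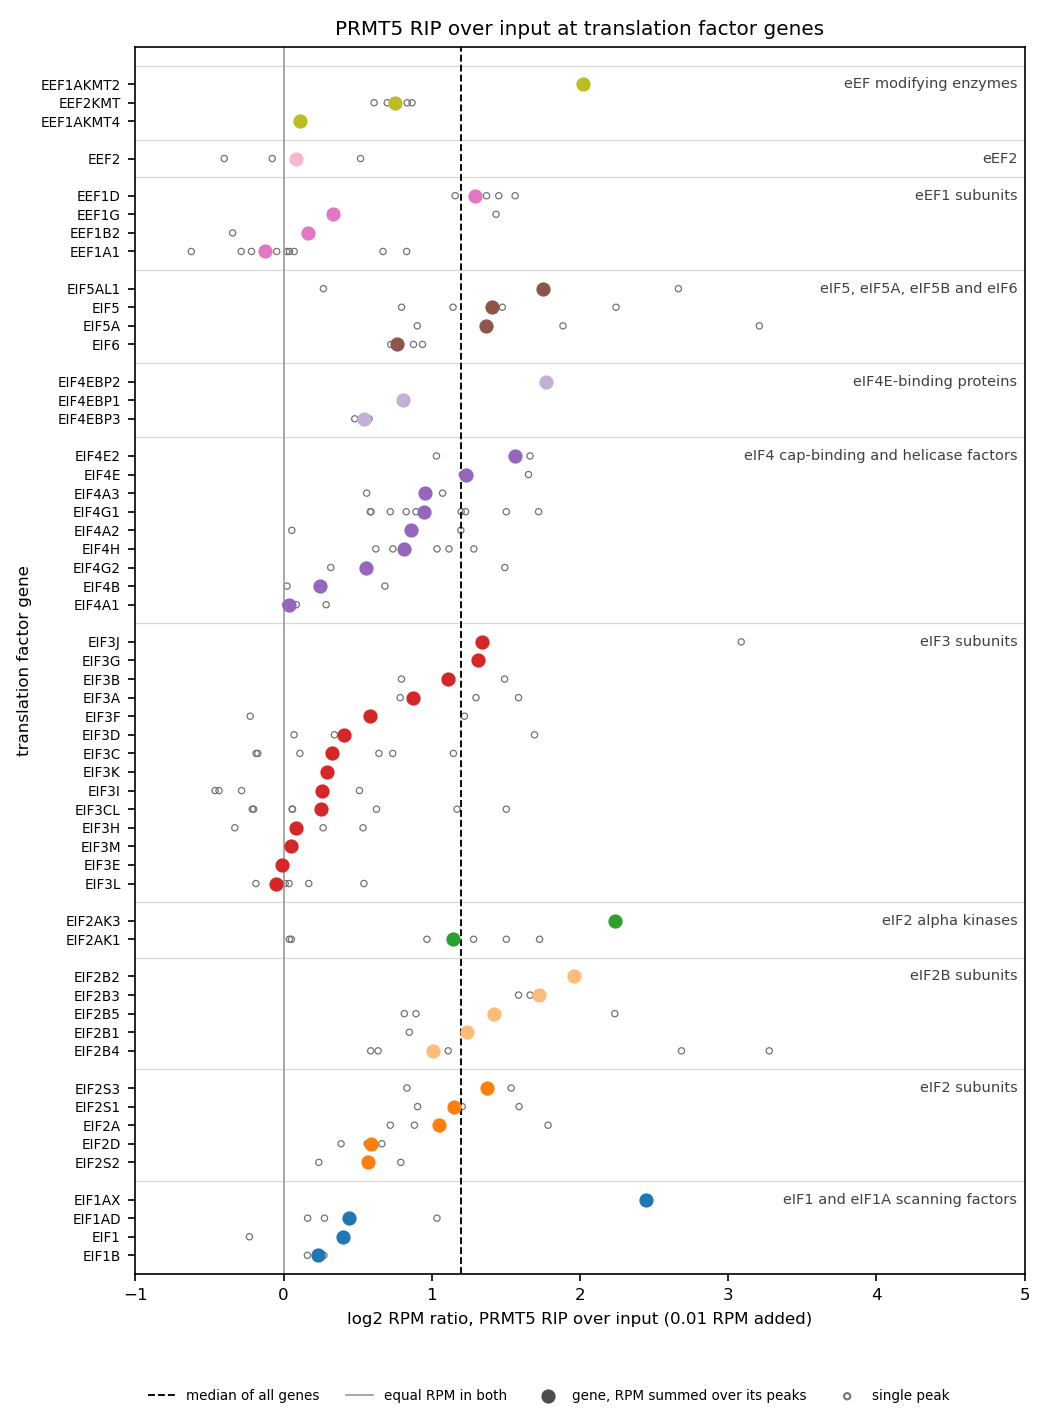
Log2 RPM ratio of PRMT5 RIP over input (horizontal axis, 0.01 RPM added) for 54 translation factor genes grouped by role (vertical axis, EIF1AY not drawn). Filled points are genes with RPM summed over their peaks, and open points are single peaks. The dashed line is the median of all genes at 1.20 and the grey line marks equal RPM. Right of the dashed line lie 4 of the 5 eIF2B genes, and left of it 12 of the 14 eIF3 genes.

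Of the 5 genes grouped by name with the scanning factors eIF1 and eIF1A, 4 lay below the median of all genes, with a group median of 0.44. That median is the value of EIF1AD, whose part in scanning was not examined here. EIF1, which guards start codon selection, had 149.73 RPM in the RIP against 113.50 RPM in input over 3 peaks, a log2 RPM ratio of 0.40. Its close relative EIF1B had the lowest ratio of the group, 0.23, from 1.54 and 1.31 RPM. EIF1AX, the X-linked gene of eIF1A, had the highest ratio of all 55 genes, 2.44, from 15.78 RPM in the RIP against 2.89 RPM in input. This value rests on 1 peak of 6074 nt that lists 3 identifiers, touches the small Cajal body RNA gene SCARNA9L and was given an FDR of 0.131 by the authors.

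The heterotrimer eIF2 carries the initiator tRNA to the ribosome, and EIF2A and EIF2D encode separate proteins that can also deliver a tRNA there. Of these 5 genes with a peak, 3 reached a ratio of 1 and 4 lay below the median of all genes. EIF2S3, the gamma subunit that binds GTP and the tRNA, was highest with 1.37, from 4.55 and 1.75 RPM. EIF2S1, the alpha subunit that stress kinases phosphorylate, had 1.15, from 10.92 and 4.92 RPM. EIF2S2, the beta subunit, was lowest with 0.57 and had the most input signal of the group, with 122.79 RPM in the RIP against 82.66 RPM in input.

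The 5 subunits of eIF2B, the exchange factor that reloads eIF2 with GTP, had a higher group median than the factor genes together. All 5 had a ratio of at least 1, beside 62.3% of all genes. Of the 5 genes, 4 lay above the median of all genes, and the group median was 1.42. EIF2B3 and EIF2B5 had below 1 RPM of input, where 86.1% of all genes reached 1. EIF2B1 and EIF2B2 had 1 to 10 RPM, where 61.0% did, and EIF2B4 had 10.14 RPM, in a class with 33.4%. EIF2B2, the beta subunit, was highest with 1.96, from 11.99 RPM in the RIP against 3.07 RPM in input in 1 peak of 1913 nt. EIF2B3 had 1.72, from 0.32 and 0.09 RPM, values only a few rounding steps of 0.01 RPM above 0. EIF2B4, the delta subunit, was the lowest of the 5 with 1.01, from 20.38 and 10.14 RPM, and 2 of its 5 peaks lie over peaks on the opposite strand, as does the only peak of EIF2B2. When the ratio of a gene was taken as the median over its peaks, 3 of the 5 eIF2B genes fell on the lower side of the median of all genes. Of the kinases that phosphorylate eIF2 alpha, EIF2AK3 (PERK, the endoplasmic reticulum stress sensor) had 2.24 from 2.25 and 0.47 RPM in 1 peak, and EIF2AK1 (the heme-regulated kinase) had 1.14 from 19.33 and 8.75 RPM over 6 peaks.

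The scaffold factor eIF3 had a peak in all 14 of its genes, and 12 of them lay below the median of all genes, with a group median of 0.31. EIF3L had 64.32 RPM in the RIP against 66.50 RPM in input over 7 peaks, a ratio of -0.05. EIF3E had 1.12 and 1.13 RPM in its only peak, a ratio of -0.01. EIF3M followed with 14.69 and 14.18 RPM, a ratio of 0.05, and EIF3H with 0.08. Only EIF3J, EIF3G and EIF3B reached a ratio of 1 among the eIF3 genes. EIF3G, the RNA-recognition-motif subunit, had 550.16 RPM in the RIP against 221.37 RPM in input in 1 peak of 4883 nt over the whole gene, a ratio of 1.31, and a peak on the opposite strand overlaps it. EIF3J, the loosely bound subunit, had 1.34, from 11.26 and 4.44 RPM. EIF3C and EIF3CL are near-identical copies whose reads the counting could split, and they had 0.33 and 0.25.

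The eIF4 group, formed by name, includes the factors that bind the cap and unwind the 5′ end of the mRNA. Of its 9 genes with a peak, 7 lay below the median of all genes, or 4 with a pseudocount of 1 RPM. EIF4A1, the main helicase, had 434.77 RPM in the RIP against 424.10 RPM in input, a ratio of 0.04. Its 6 peaks all lay between 0.01 and 0.29, the narrowest spread of any factor gene with 6 or more peaks, and each lists several identifiers. EIF4E2, a cap-binding homologue of eIF4E, was highest with 1.56, from 68.22 and 23.07 RPM. EIF4E itself had 1.23, from 4.63 and 1.97 RPM. EIF4G1, the scaffold of the cap complex, had the most peaks of all factor genes, 10, and a ratio of 0.95. The 3 eIF4E-binding proteins with a peak, which hold eIF4E back from the scaffold, had 1.77 for EIF4EBP2, 0.80 for EIF4EBP1 and 0.55 for EIF4EBP3. EIF4EBP1 had 1 peak whose ends lie 29755 nt apart on the genome, nearly the whole gene. EIF4EBP2 had 1 of 15842 nt from its start. Whether the signal runs through the introns within them was not examined.

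The group of eIF5, eIF5A and eIF6 genes, formed by name, had 3 of its 4 genes with a peak above the median of all genes. The group median was 1.38. Where each gene was read from its peak with the most input RPM, the order turned, and 3 of these 4 genes lay below the median of all genes. EIF5, the GTPase activator of eIF2, had 1.41, from 10.96 and 4.13 RPM. EIF5A, the hypusine-bearing factor that relieves stalled ribosomes, had 617.92 RPM in the RIP against 240.26 RPM in input, a ratio of 1.36. EIF5AL1, a copy of EIF5A that can share its reads, had 1.75 from 23.31 and 6.91 RPM. EIF6, which keeps the large ribosomal subunit apart from the small one, had 0.76.

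Of the 5 elongation factor genes with a peak, EEF1D alone lay above the median of all genes. EEF1A1, which brings aminoacyl-tRNA to the ribosome, had 2798.86 RPM in the RIP against 3049.21 RPM in input, the lowest ratio of all 55 genes at -0.12. EEF1B2, of the exchange complex that recharges eEF1A, had 490.39 and 437.80 RPM, a ratio of 0.16. EEF1G, of the same complex, had 1386.52 and 1101.37 RPM, a ratio of 0.33. EEF1D, the remaining exchange subunit with a peak, had 424.57 RPM in the RIP against 173.17 RPM in input, a ratio of 1.29, and all 5 of its peaks exceeded 1, although the peak that holds most of its RPM lies over a peak on the opposite strand. EEF2, the translocase, had 549.11 and 519.09 RPM, a ratio of 0.08. EEF1A1 has many processed pseudogenes, and the handling of reads that match several copies is not given in the sources used here. Of the enzymes that modify elongation factors, EEF1AKMT2 had 2.02 from 1.49 and 0.36 RPM, EEF2KMT had 0.75 and EEF1AKMT4 had 0.11.

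Ratios were lower in genes with more input signal, among the factors and over all genes. Input RPM is also the denominator of the ratio, so the ratio and the input signal are not independent values. Over all genes, the median ratio was 1.68 below 1 RPM of summed input, 1.14 from 1 to 10 RPM, 0.80 from 10 to 100 RPM and 0.59 at 100 RPM and above. The factor genes in the same classes had medians of 1.72 over 5 genes, 1.05 over 22 genes, 0.67 over 14 genes and 0.31 over 14 genes. The median summed input RPM was 10.1 for the factor genes and 2.28 for all genes, so the lower median of the factors was seen beside a higher input signal, whose part in the difference was not tested. Within its own class, a factor gene lay below the class median in 2 of 5, 12 of 22, 9 of 14 and 11 of 14 cases, in the order of rising input. EIF5A, EIF3G and EEF1D were the 3 genes of the highest class with a ratio of at least 1, against 29.7% of all genes in that class. The list holds called peaks only, and below 1 RPM of input 86.1% of its genes had a ratio of at least 1.

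**Figure D2:**
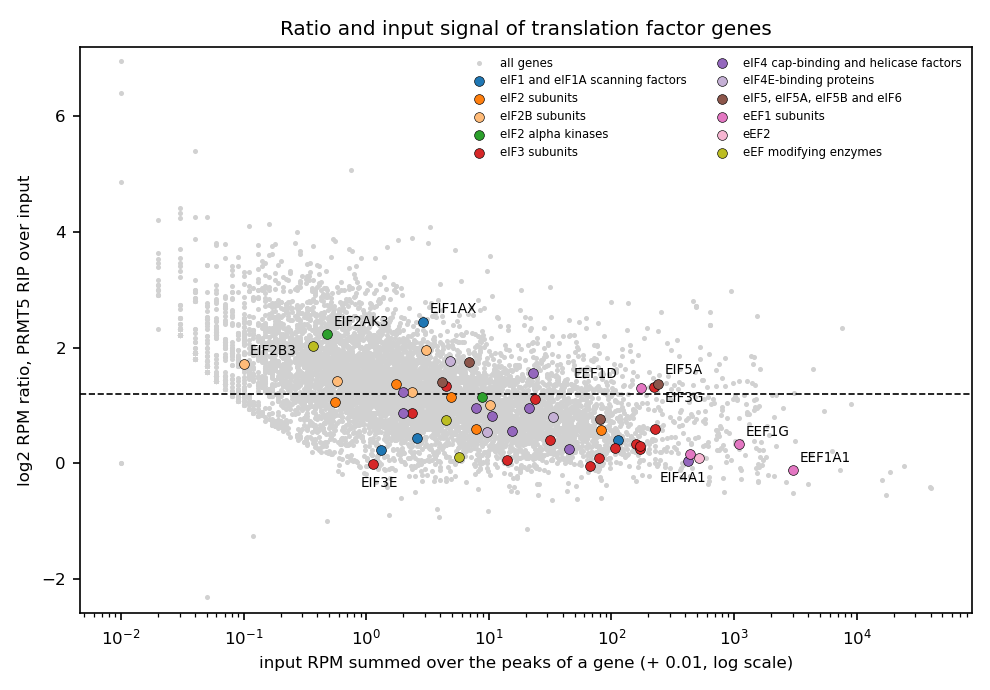
Log2 RPM ratio (vertical axis) against the input RPM summed over the peaks of a gene (horizontal axis, 0.01 added, log scale), with all genes in grey and 54 translation factor genes coloured by role. The dashed line is the median of all genes; EEF1A1 and EEF1G sit low at the right, and EIF5A, EIF3G and EEF1D stand above the line at more than 100 RPM.

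In most factor genes with several peaks, the ratio was higher in the called peak nearest the 5′ end than in that nearest the 3′ end. Such peaks can lie far from the gene ends. The first peaks of EIF3C and EIF2B3 begin 22913 and 44975 nt from the annotated starts. Of 43 factor genes with at least 2 peaks, 34 (79.1%) had a higher ratio in the peak nearest the 5′ end than in that nearest the 3′ end, against 69.5% of all 4645 such genes. The first peaks of EEF1A1 and EIF4EBP3 begin well upstream of the annotated starts, and without peaks that begin over 50 nt upstream the shares were 33 of 42 factor genes (78.6%) and 69.6% of all genes. The median ratio was 1.22 in the 5′ peaks and 0.66 in the 3′ peaks of the factor genes, and 1.39 and 0.96 over all genes. Where the 5′ peak had at least as much input RPM as the 3′ peak, it had the higher ratio in 14 of 19 factor genes (73.7%). This compares with 61.9% of all such genes.

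EIF5A showed the difference at high signal. From the 5′ end, its 3 peaks had 50.60, 260.31 and 307.01 RPM in PRMT5 RIP and 5.46, 70.48 and 164.32 RPM in input, so the ratio went from 3.21 to 1.88 to 0.90. The copy EIF5AL1 had 2.66 in its 5′ peak, from 18.49 and 2.91 RPM, and 0.27 in its 3′ peak, from 4.82 and 4.0 RPM. In EIF2B4 the peak that begins 8 nt from the annotated start had the highest ratio of all factor peaks, 3.28, at 1.25 RPM in the RIP against 0.12 RPM in input, and the last peak had 0.59. EIF3F had 1.22 in the 5′ peak, from 229.29 and 98.42 RPM, and -0.23 in the 3′ peak, from 108.26 and 126.57 RPM. EEF1G had 1.43 in a 50 nt peak that begins 34 nt from its start and 0.32 in the wide peak over the rest of the gene.

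The opposite order was found in 9 genes, with the largest differences in EIF4A2, EIF3CL, EIF4B and EIF3A. EIF4A2 had 0.06 at the 5′ end and 1.20 at the 3′ end, where the peak touches the small nucleolar RNA gene SNORA4. In EIF3CL the last peak had only 0.16 and 0.05 RPM. EIF4G1 had 1.23 and 1.5, and the last of its 10 peaks had 0.16 and 0.05 RPM. EEF1A1 kept a low ratio along the gene: its 5 peaks from 972 nt onward lay between -0.62 and 0.02, while a 50 nt peak at the start had 0.67 from 34.98 and 21.97 RPM. The other 3 peaks that the list assigns to EEF1A1 begin upstream of its annotated start and hold at most 2.07 RPM.

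**Figure D3:**
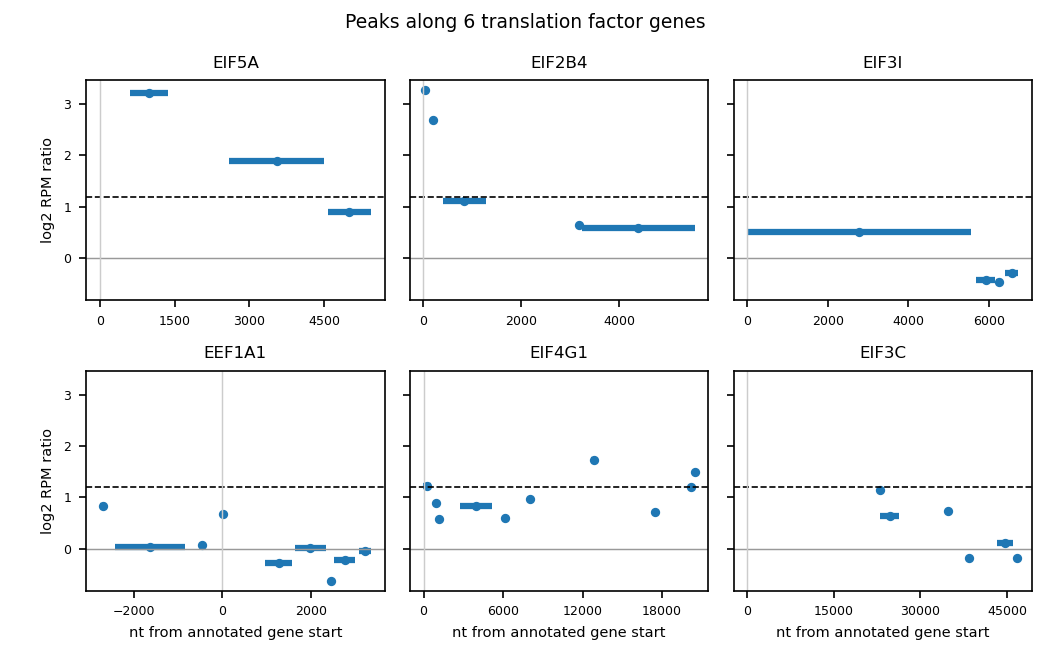
Log2 RPM ratio (vertical axis) of each peak along 6 factor genes, by distance in nt from the annotated start (horizontal axis, its own scale in each panel). Bars span the peaks and points mark their centres, the dashed line is the median of all genes and the grey line equal RPM; EIF5A and EIF2B4 fall from above 3 to below 1, while EIF4G1 shows no such order.

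In 36 of the 55 factor genes (65.5%) a peak began within 50 nt of the annotated gene start, against 44.4% of 6786 named protein-coding genes. This start is the outer 5′ boundary of the RefSeq gene. It differs from the start position used for the sequences in some genes, such as EIF3B and EIF4G2. At the very base began 9 factor peaks (5.45%), against 4.79% of the peaks of those genes. The 37 factor peaks near the start had a median ratio of 1.07 and the other 128 had 0.63, where all named protein-coding genes had 1.39 and 1.03. Factor peaks had a median width of 350 nt, against 275 nt for all peaks, and 21 of them (12.7%) were wider than 5000 nt, against 14.1% of all peaks. Only 12 factor genes (21.8%) had a single peak, against 45.1% of all genes. Peaks of both strands overlapped at 13 factor peaks (7.88%), against 18.1% of all peaks.

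The 13 factor genes on a list of classical TOP mRNAs had a lower median ratio, 0.24, than the other 42 factor genes, 0.95. Of the 13 genes, 11 lay below the median of all genes and 2 reached a ratio of 1, EEF1D with 1.29 and EIF2S3 with 1.37. Among the other 42 genes, 27 lay below the median of all genes and 20 reached 1. The TOP genes also had more input signal, with a median of 78.8 RPM against 8.31 RPM. At 100 RPM of input and above, 6 TOP genes had a median of 0.25 and 8 other factor genes one of 0.31. From 10 to 100 RPM the medians were 0.08 over 3 TOP genes, which are EIF3L, EIF3H and EIF4B, and 0.80 over 11 others. Below 10 RPM they were 0.87 over 4 genes and 1.23 over 23 genes.

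Read from the sequences themselves, 11 of the 44 factor genes with a start-site sequence (25%) have the C and pyrimidine run marked in capitals above, against 6.23% of all 5685 named genes with a peak and a sequence and 4.04% of all 27305 start-site sequences in the table. The 11 genes had a median ratio of 0.40, and 10 of them lay below the median of all genes. The 33 factor genes without the run had a median of 1.01, and 19 of them also lay below the median of all genes. EIF2S3 was the gene with the run above the median of all genes. The run itself went with a small difference over all named genes, with medians of 1.01 with it and 1.21 without. In the classes of rising input these medians were 1.37 against 1.70, 1.14 against 1.17, 0.70 against 0.85, and 0.65 in both at 100 RPM and above.

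Other genes of the translation apparatus were set beside the factors without a test. The 81 cytosolic ribosomal protein genes, nearly all TOP mRNAs by textbook definition, had a median ratio of 0.66 at a median summed input of 777 RPM, so their ratio was above that of the TOP factor genes at a higher input. The 15 aminoacyl-tRNA synthetase genes had 0.93 at 6.08 RPM. Among 65 genes that act on or beside the factors, 48 had a peak, and 32 of these (66.7%) had a ratio of at least 1, beside the 62.3% of all genes. Their median was 1.32, beside 1.20 over all genes and 0.80 over the factors. LARP1, which binds TOP starts, had 1.97 from 16.48 RPM in the RIP against 4.19 RPM in input over 4 peaks. PAIP2, an inhibitor of poly(A)-binding protein, had 2.58 from 40.82 and 6.80 RPM, and PABPC1, the poly(A)-binding protein whose mRNA is itself a TOP mRNA, had 0.43 from 37.45 and 27.87 RPM. ATF4, the transcription factor made when eIF2 alpha is phosphorylated, had 0.56 from 238.91 and 161.50 RPM.

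Several of the RNAs named here share their peaks with other genes. Small RNA genes lie in 6 factor peaks, those of EEF1B2 (SNORA41 and SNORD51), EEF1G (MIR6747), EEF2 (SNORD37), EIF1AX (SCARNA9L), EIF4A1 (SNORA48 and SNORD10) and EIF4A2 (SNORA4), which is 3.64% of factor peaks against 2.0% of all peaks. Several identifiers are listed by 19 factor peaks (11.5%), against 8.62% of all peaks. Without the peaks that touch a small RNA gene, the median over the factor genes was 0.78 and 40.7% reached a ratio of 1. Over all peaks in the list, the factor genes held 1.26% of the summed RPM in PRMT5 RIP and 1.58% in input.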

How the data were processed

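The 2 PRMT5 RIP and 2 input libraries were made with a strand-specific kit. The submitters' processing notes name fastp, HISAT2 and hg38. The peak caller, the counter, the annotation and the pooling of replicates are not given in the sources used here. In the list the authors give RPM values per peak, rounded to 0.01 and pooled over replicates. The deposited log2 fold change and the FDR, an adjusted p-value, are the authors' peak caller's values, and the scaling of the former is not stated.

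A peak counted for the identifier listed first. An identifier took its symbol from the part of the study's supplementary target list used here, and otherwise from the smallest RefSeq gene (GRCh38.p14) on the same strand touched by most of its peaks. Genes whose strand the tables do not give were allowed. Of 842 identifiers named both ways, 815 had the same name. The log2 RPM ratio used a pseudocount of 0.01. It was tested on simulated data, in which known changes were recovered. This checks the calculation only, and not the peak calls, the pooling or the scaling. No test across replicates was possible, and no interval across replicates or floor on reads was computed. Binomial 95% intervals over the members served only to judge whether a share moved under an alternative. They treat the peaks and genes of a pooled list as independent, which they are not, and they measure no spread between replicates. Exons and UTRs were not analysed here, and peak widths are genomic spans from the first to the last base of a peak.

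The members and the gene lists were chosen with earlier results of these data known. The rule that most peaks, in place of all, must touch a gene was changed after the values were seen, since the former rule lost EEF1A1. The input classes, the start-site run, the ribosomal protein and synthetase sets, the cell type genes, the alternative without upstream peaks and the count against the median of all genes were also chosen after seeing the data. Named genes were the highest, the lowest and the one with most input in each role group, the 5 highest and 5 lowest genes and peaks with at least 1 RPM of input, and genes whose peaks hold a small RNA gene, and others were named after their values were seen. The alternatives covered filters on input RPM, FDR, peak width, identifiers and overlaps, the pseudocount, the deposited log2FC, centring and the gene summary. Python 3.11.15, pandas 2.3.3, numpy 2.4.6, scipy 1.17.1 and matplotlib 3.10.9 were used.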

Additional observations from a re-analysis of the deposited data

How the results depend on the processing

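The share of factor genes below the median of all genes was between 56.4% and 70.9% under 14 alternatives, beside 50% by definition. Centring, among these 14, shifts all genes alike and could not change this share. The share was lowest with a pseudocount of 1 RPM. There the factor genes had a median difference of -0.10 from the median of all genes, beside -0.40 in the main setting. The shares of genes with the higher ratio in the 5′ peak were between 73.7% and 81.4%. Shares past a fixed ratio of 1 moved with the scale. For peaks the 34.5% became 27.5% at an input RPM of at least 0.5, 26.7% and 13.3% with pseudocounts of 0.1 and 1 RPM, 72.0% by the deposited log2FC and 5.45% when centred on the median of all peaks. For genes the 40.0% became 27.3% with a pseudocount of 1 RPM, 78.2% by the deposited log2FC and 3.64% when centred. By the deposited log2FC, 28% of factor peaks were below 1, against 8.82% of all peaks. The shares over all peaks or genes under the other settings are not given here, so these shifts describe the factors alone. Among genes with the start-site run and an input of at least 10 RPM, 0 of 7 reached a ratio of 1, since the filter removed EIF2A and EIF2S3, which have 0.55 and 1.75 RPM of input. The counts of each role group below the median of all genes were within 1.5 times the reported ones in 135 of 154 cases. These cases include centring for each of the 11 groups, which could not change the count. The exceptions included the eIF2B group with 0 to 3 genes of 5, the kinases with 0 or 1 of 2, the eIF4 group with 4 of 9 in place of 7 at a pseudocount of 1 RPM, and the group of eIF5, eIF5A and eIF6 with 3 of 4 in place of 1 by the peak with the most input and 0 at a pseudocount of 1 RPM. The eIF2 group had 2 in place of 4 at an input RPM of at least 0.5. Without the 10 genes of unlisted strand, 7 of 8 eIF3 genes lay below the median of all genes, beside 12 of 14. No paired analysis was possible because the list holds 1 pooled value per group, and for the same reason no replicate could be left out. Depth limits the peaks with few hundredths of an RPM in input, such as those of EIF2B3, and the list does not state it.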
